A study of Mus musculus with 9 samples.

Results

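Nidogens, perlecan, agrin, the multiplexin collagens and the SPARC family are the basement membrane genes that sit around the laminin and type IV collagen networks, and 9 of them were followed here: Nid1, Nid2, Hspg2, Agrn, Col15a1, Col18a1, Sparc, Smoc1 and Smoc2. They were chosen by name, by matching the Ensembl mouse identifiers of the count table to these symbols, and each symbol matched 1 of the 35275 genes listed. All 9 passed the filter on low counts, among 15825 genes tested. RNA had been sequenced in bulk from the anterior segment of the eye (cornea, iris, ciliary body and drainage structures, lens removed) of newborn mice at postnatal day 0. The groups were 3 wildtype libraries, Col4a1+/+, and 6 mutant libraries, Col4a1+/G1344D, heterozygous for a missense allele of the type IV collagen alpha 1 chain. Each library pooled 4 eyes of 2 mice, so the spread measured is that between pools. The labels name neither strain nor sex.

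A basement membrane is a thin sheet of matrix under epithelia and endothelia and around muscle and nerve. Laminins polymerise at the cell surface, type IV collagen forms a second, covalently linked network, and nidogens and heparan sulfate proteoglycans bind to both. In the eye such sheets lie under the corneal epithelium, behind the corneal stroma, around the lens and around vessels, and mutations of Col4a1 are known to cause anterior segment dysgenesis.

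Library totals ran from 25995340 to 35306935 counts, and the lowest count of any of the 9 genes in any library was 1009 (Smoc1, wildtype 1), where counting error alone is 3.15%. In 6 libraries, wildtype 1 and mutants 1, 3, 4, 5 and 6, the ribosomal RNA-like gene Gm42418 took between 4.11% and 6.91% of counts, and in the other 3 between 0.0663% and 0.0708%. Expression also leaned on gene length differently by library: the slope of log2 expression per doubling of exon length ran from -0.132 to -0.034 in wildtype and from -0.001 to 0.152 in mutant libraries, lowest in wildtype 1 and highest in mutant 4. Keratocyte and corneal epithelial markers were abundant (summed CPM, counts scaled to library size, of 7490 to 13011 and 7494 to 8802 over libraries), and summed lens and skeletal muscle markers stayed under 9 CPM.

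Of the 9 genes, 7 rose in the mutant, 1 fell and 1 did not pass the test (edgeR quasi-likelihood test, Benjamini-Hochberg adjusted p under 0.05). Over all tested genes 9.70% were called higher and 9.47% lower. Hspg2, which encodes perlecan, rose most, 1.99-fold, and Nid1, Nid2, Agrn, Col15a1, Col18a1 and Smoc1 rose between 1.39-fold and 1.55-fold. Smoc2 fell 1.30-fold, the only call in that direction. For 6 genes every mutant library lay above every wildtype library, against 10.8% of all tested genes. The median log2 fold change was 0.49 over the 9 genes and -0.0019 over all genes tested.

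The sequences around the starts of the genes that rose are shown first, because their base composition differs widely. RefSeq promoter windows (build GRCm38.p6, 250 bases before to 50 after an annotated start, written in the direction of transcription) matched 6 of the 9 genes, in 8 windows, since Agrn and Col18a1 each have 2 annotated starts. Nid2, Smoc1 and Smoc2 had no window, so Nid2 and Smoc1 are missing below although called higher. The windows of the other genes called higher follow, the upstream one where there were 2. Capitals mark GGGCGG or its complement CCGCCC, the GC box bound by Sp1-type factors.
Hspg2, chr4:137468553-137468852, plus strand: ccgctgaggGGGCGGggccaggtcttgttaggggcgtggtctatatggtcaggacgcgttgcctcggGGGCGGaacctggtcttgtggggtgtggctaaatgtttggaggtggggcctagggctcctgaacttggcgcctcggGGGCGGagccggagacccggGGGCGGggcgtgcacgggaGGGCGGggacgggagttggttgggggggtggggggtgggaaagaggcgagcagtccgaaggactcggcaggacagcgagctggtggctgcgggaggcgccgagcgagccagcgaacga
Agrn, chr4:156197439-156197738, minus strand: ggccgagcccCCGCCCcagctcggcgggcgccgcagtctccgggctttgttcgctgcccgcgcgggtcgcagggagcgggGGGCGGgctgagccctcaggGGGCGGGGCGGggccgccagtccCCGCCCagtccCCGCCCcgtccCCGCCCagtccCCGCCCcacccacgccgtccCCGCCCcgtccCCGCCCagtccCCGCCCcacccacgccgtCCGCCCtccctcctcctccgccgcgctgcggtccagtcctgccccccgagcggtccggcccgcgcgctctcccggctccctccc
Nid1, chr13:13437352-13437651, plus strand: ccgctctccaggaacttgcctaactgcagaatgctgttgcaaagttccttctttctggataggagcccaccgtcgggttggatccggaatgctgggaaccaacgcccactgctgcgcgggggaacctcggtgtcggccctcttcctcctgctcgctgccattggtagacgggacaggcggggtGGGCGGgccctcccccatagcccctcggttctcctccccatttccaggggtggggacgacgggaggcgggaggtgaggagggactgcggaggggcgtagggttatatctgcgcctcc
Col18a1, chr10:77166481-77166780, minus strand: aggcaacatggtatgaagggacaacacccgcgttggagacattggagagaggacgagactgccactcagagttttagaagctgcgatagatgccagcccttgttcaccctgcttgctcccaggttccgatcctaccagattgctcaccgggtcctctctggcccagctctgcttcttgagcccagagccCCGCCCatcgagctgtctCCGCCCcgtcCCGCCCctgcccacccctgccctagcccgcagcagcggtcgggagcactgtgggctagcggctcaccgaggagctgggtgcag
Col15a1, chr4:47207762-47208061, plus strand: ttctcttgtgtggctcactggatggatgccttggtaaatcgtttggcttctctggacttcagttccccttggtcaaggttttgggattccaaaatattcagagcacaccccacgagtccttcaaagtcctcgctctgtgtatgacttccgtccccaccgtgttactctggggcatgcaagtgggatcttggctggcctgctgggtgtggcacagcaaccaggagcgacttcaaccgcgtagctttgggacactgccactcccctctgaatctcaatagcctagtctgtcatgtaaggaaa

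GC boxes on either strand, overlaps counted, numbered 12 in the Agrn window, 5 in Hspg2, 3 in Col18a1, 1 in Nid1 and 0 in Col15a1. Of all 32851 windows, 35.7% held at least 1, 2.71% held 5 or more and 0.0213% held 12 or more. The Agrn window was 83.3% G or C with 42 CpG dinucleotides, the Hspg2 window 70.3% with 27 and the Col15a1 window 52.3% with 8, beside medians of 52.7% and 7 over all windows. CCAAT stood once in the Nid1 and Col18a1 windows (37.4% of all windows hold it), and TATAAA (13.6%), CACGTG (7.15%) and GTCTAGAC (0.213%) were in none of the 8 windows. CAGACA (21.0% of windows) occurred 2 times in the Sparc window and once in the downstream Col18a1 window. The RefSeq start used for the Sparc window lies 3103 bases from the gene start in the GENCODE annotation, and that for Col15a1 149 bases. No motif searched was present in all 5 windows printed. A match is a description of the letters in the window and not a measured binding site.

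Levels between genes are compared as FPKM, that is CPM divided by summed exon length in kilobases. Sparc, a collagen-binding glycoprotein secreted by stromal cells, stood far above the rest, at 1534 ± 121 FPKM (SD, n = 3) in wildtype, higher than 99.9% of tested genes. Nid1 followed at 73.1 ± 7.19 FPKM, then Nid2 at 41.8 ± 3.17 and Agrn at 39.7 ± 5.05, whose ranges overlapped. Smoc2 at 30.9 ± 2.82, Col18a1 at 24.7 ± 2.96 and Hspg2 at 17.0 ± 2.79 FPKM came next without overlap between neighbours. Smoc1 at 12.2 ± 1.41 and Col15a1 at 9.23 ± 1.62 FPKM were lowest and overlapped each other. In the mutant (n = 6) Smoc2 dropped below both Col18a1 and Hspg2: the mean levels were 34.5 ± 1.91 FPKM for Col18a1, 33.9 ± 6.97 for Hspg2 and 23.7 ± 3.62 for Smoc2, with Hspg2 overlapping both of the others. Transcripts of different isoforms share these counts, so the Agrn and Col18a1 forms made from their separate starts are not told apart.

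**Figure D1:**
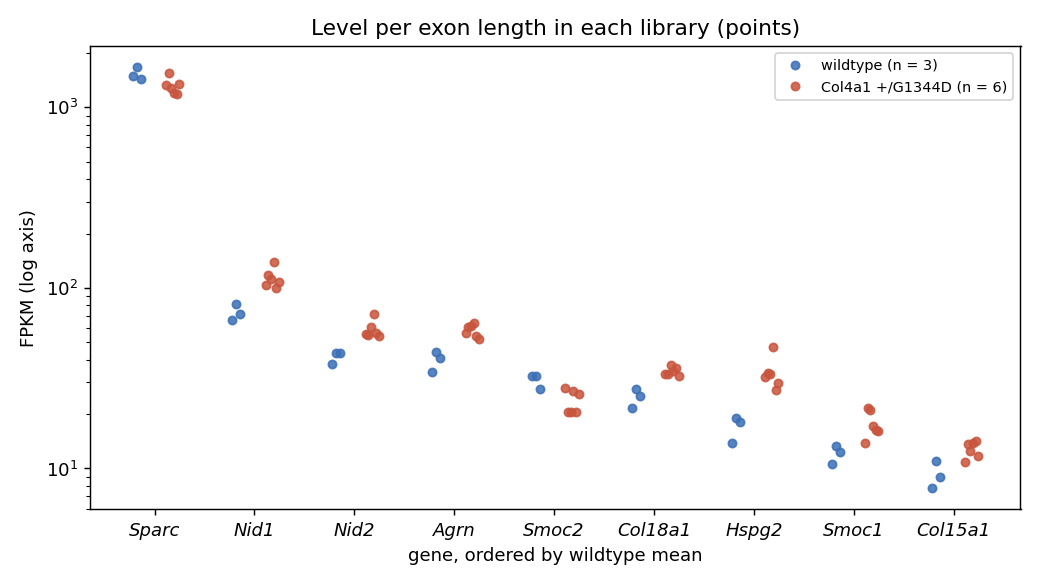
Level per exon length (FPKM, log axis) of each gene in every library, with wildtype and Col4a1 +/G1344D libraries as separate points and genes ordered by wildtype mean. Sparc lies at a mean of 1534 FPKM in wildtype and the other 8 genes between 7.78 and 81.0 FPKM, and only Sparc and Smoc2 have mutant means below their wildtype means.

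Nidogens are rod-shaped glycoproteins that bind the laminin gamma 1 chain and type IV collagen and so link the networks. Nid1 (ENSMUSG00000005397, chromosome 13, 13437551 to 13512269, plus strand, GRCm38) stood at 464, 562 and 498 CPM in wildtype 1 to 3 and at 698 to 967 CPM in the mutants, with a median of 761. Every mutant library was above every wildtype library, and the lowest mutant was 24.1% above the highest wildtype. Nid1 rose 1.55-fold (log2 0.64, SE 0.11, edgeR adjusted p = 0.00202). Nid2 (ENSMUSG00000021806, chromosome 14, 19751265 to 19811787, plus strand), the paralogue with overlapping binding partners, stood at 197, 226 and 225 CPM in wildtype and at 279 to 373 CPM in the mutants, median 290. Its groups did not overlap either, and mutant 4 was the highest library for both nidogens. Nid2 rose 1.41-fold (log2 0.49, SE 0.096, edgeR adjusted p = 0.00392). Of the exon length of Nid2, 8.45% is shared with Rtraf on the other strand, and the strand setting of the counting is unknown here. Rtraf itself was lower in the mutant, at 189 ± 17.3 CPM in wildtype and 147 ± 10.6 in mutant libraries.

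Perlecan and agrin carry heparan sulfate chains, which hold growth factors in the matrix. Perlecan joins laminin, nidogen and type IV collagen, and agrin ties laminin to dystroglycan and, at the neuromuscular synapse, signals through Lrp4 and MuSK. Hspg2 (ENSMUSG00000028763, chromosome 4, 137468769 to 137570630, plus strand) stood at 198, 274 and 258 CPM in wildtype. In the mutants it ran from 389 (mutant 5) to 676 CPM (mutant 4), median 468, and the lowest mutant was 42.2% above the highest wildtype. Hspg2 rose 1.99-fold (log2 1.0, SE 0.15, edgeR adjusted p = 0.00115), and without mutant 4 the log2 fold change was 0.88 (adjusted p = 0.000106). Agrn (ENSMUSG00000041936, chromosome 4, 156165290 to 156197488, minus strand) stood at 318, 411 and 378 CPM in wildtype and at 481 to 591 CPM in the mutants, median 545. The groups did not overlap, by a margin of 17.1%. Agrn rose 1.46-fold (log2 0.55, SE 0.096, edgeR adjusted p = 0.00235).

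Multiplexins are collagens with interrupted triple helices and glycosaminoglycan chains, and their C-terminal fragments, endostatin from collagen XVIII and restin from collagen XV, are known inhibitors of vessel growth. Col18a1 (ENSMUSG00000001435, chromosome 10, 77052178 to 77166548, minus strand) stood at 151, 192 and 177 CPM in wildtype and at 228 to 263 CPM in the mutants, median 238. The mutants varied least for this gene, with a coefficient of variation of 5.53%, and all lay above the wildtypes. Col18a1 rose 1.4-fold (log2 0.48, SE 0.084, edgeR adjusted p = 0.00237). Col15a1 (ENSMUSG00000028339, chromosome 4, 47208161 to 47313167, plus strand) stood at 49.4, 69.7 and 56.7 CPM in wildtype and at 68.8 to 90.5 CPM in the mutants, median 83.1. Mutant 1, at 68.8 CPM, lay just under wildtype 2, so 5 of 6 mutants exceeded all wildtypes. Col15a1 rose 1.39-fold (log2 0.48, SE 0.11, edgeR adjusted p = 0.00991), and lost its call without wildtype 1 (log2 0.37, adjusted p = 0.0915).

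The SPARC family split: Smoc1 rose, Smoc2 fell, and Sparc, by far the most abundant, did not pass the test. Its members share a calcium-binding extracellular domain: SPARC binds collagens and is known to act in their deposition, while SMOC1 and SMOC2 are found at basement membranes, and loss of SMOC1 is known to cause severe eye malformation. Sparc (ENSMUSG00000018593, chromosome 11, 55394500 to 55423183, minus strand) stood at 5649, 6331 and 5456 CPM in wildtype and at 4506 to 5851 CPM in the mutants, median 4929. Of the mutants 5 of 6 were below all wildtypes, with mutant 2 inside the wildtype range, and the difference did not pass the test (log2 -0.22, SE 0.11, edgeR adjusted p = 0.177). Smoc1 (ENSMUSG00000021136, chromosome 12, 81026808 to 81186414, plus strand) stood at 37.2, 47.0 and 43.4 CPM in wildtype. In the mutants it was 48.7, 75.8, 73.9, 59.6, 56.9 and 56.3 CPM in libraries 1 to 6, all above wildtype but by only 3.61% for mutant 1. Smoc1 rose 1.45-fold (log2 0.54, SE 0.13, edgeR adjusted p = 0.0114), and without wildtype 1 the log2 fold change was 0.45 (adjusted p = 0.0984). Smoc2 (ENSMUSG00000023886, chromosome 17, 14279506 to 14404790, plus strand) stood at 226, 226 and 192 CPM in wildtype. In mutants 1 to 6 it was 195, 142, 142, 188, 143 and 181 CPM, so mutants 2, 3 and 5 lay well below the other 3, and mutant 1 reached the wildtype range. Smoc2 fell 1.30-fold (log2 -0.38, SE 0.11, edgeR adjusted p = 0.0247), a call lost without wildtype 1 (adjusted p = 0.138), wildtype 2 (0.0860) or mutant 3 (0.0539).

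**Figure D2:**
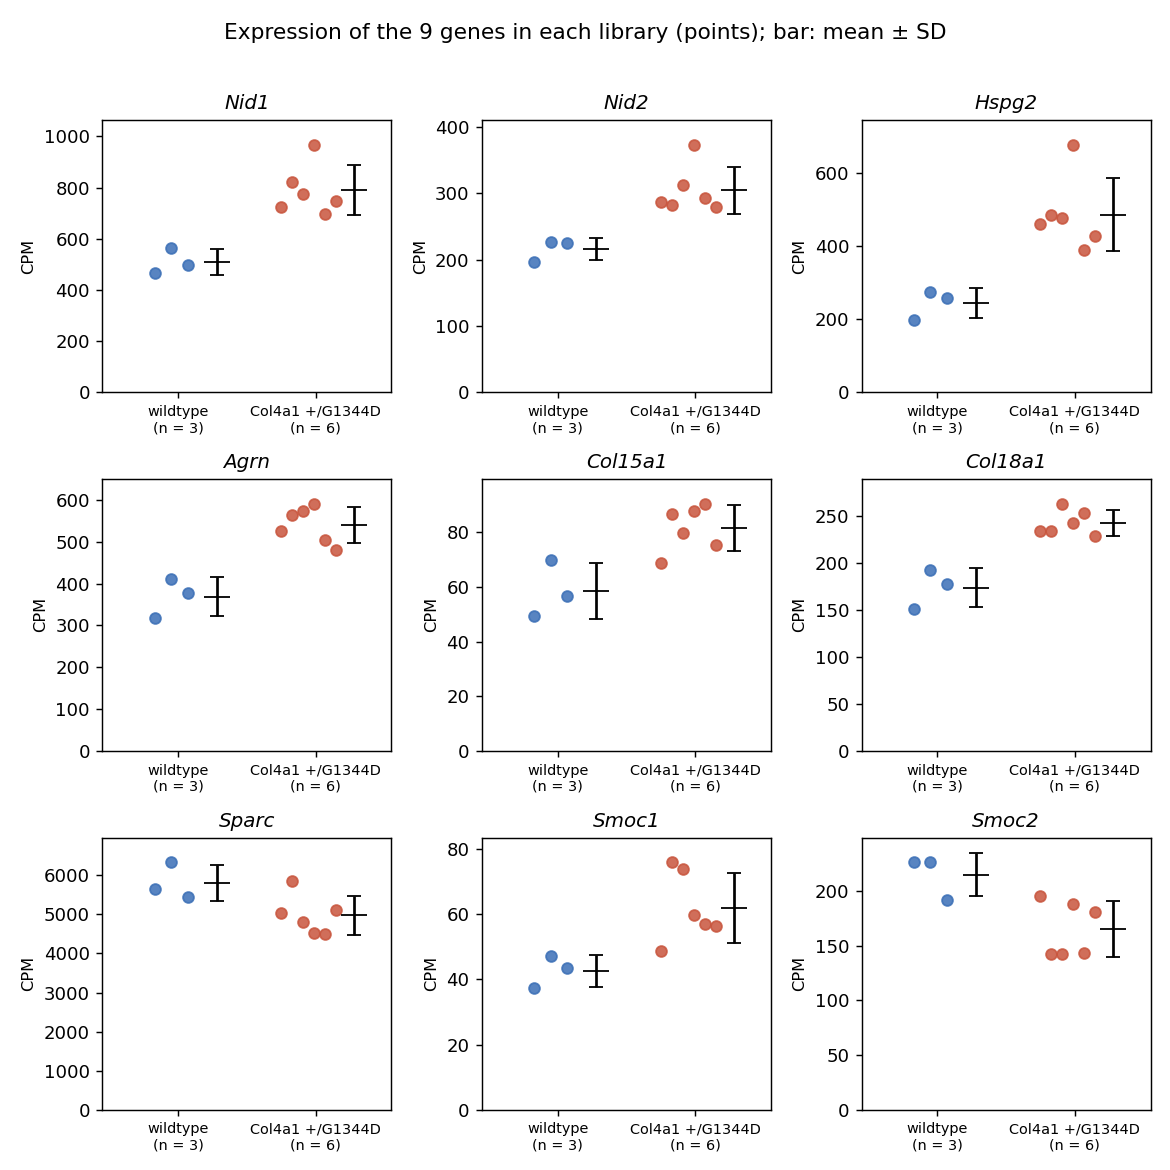
CPM of each gene in each library (points, linear axis from 0), wildtype (n = 3) beside Col4a1 +/G1344D (n = 6), with mean and SD drawn as a bar. The groups are apart for Nid1, Nid2, Hspg2, Agrn, Col18a1 and Smoc1 and overlap for Col15a1, Sparc and Smoc2.

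Whether genes of like role changed by unequal amounts was asked with the ratio of their counts inside each library. Such a ratio does not depend on how libraries are scaled. It can still carry the length slope of a library where the paired genes differ in exon length. No ratio was tested with the length trend removed. For each of 4 ratios, the log2 values were compared by exact permutation, two-sided, over all 84 splits, where 0.0119 is the smallest possible p, with adjustment over the 4. Smoc1 over Smoc2 was 0.165, 0.208 and 0.226 in wildtype and 0.250 to 0.532 in the mutants, so the groups did not overlap. The ratio was 1.89-fold higher in the mutant (log2 difference 0.92, exact permutation p = 0.0238, adjusted p = 0.0476, higher in 6 of 6 mutants). Without the log the adjusted p was 0.0952. Hspg2 over Agrn was 0.622, 0.666 and 0.684 in wildtype and 0.774 to 1.14 in the mutants, again without overlap. It was 1.35-fold higher (log2 difference 0.43, exact permutation p = 0.0119, adjusted p = 0.0476, higher in 6 of 6 mutants). Over the libraries left out in turn, the log2 differences ran from 0.79 to 1.04 and from 0.36 to 0.47. Both calls held without mutant 1 and missed the threshold when any other library was left out. The smallest possible unadjusted p is then 0.0357 with 2 wildtypes and 0.0179 with 5 mutants. Hspg2 over Agrn stood at that smallest p whichever library was left out, so its call was missed only after adjustment over the 4 ratios. Smoc1 over Smoc2 stood at it only without wildtype 3 or mutant 1. Without wildtype 3 both ratios stood at 0.0357 and adjusted to 0.0714 (exact permutation). With 2 wildtypes, 2 ratios at the smallest p thus could not pass.

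The other pairs were not shown to change. Nid1 over Nid2 was 2.21 to 2.48 in wildtype and 2.38 to 2.92 in the mutants (log2 difference 0.14, exact permutation p = 0.0833, adjusted p = 0.111). Col18a1 over Col15a1 was 2.76 to 3.13 and 2.70 to 3.40, with means of 2.99 in wildtype and 3.0 in mutant libraries (exact permutation p = 0.988, adjusted p = 0.988).

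**Figure D3:**
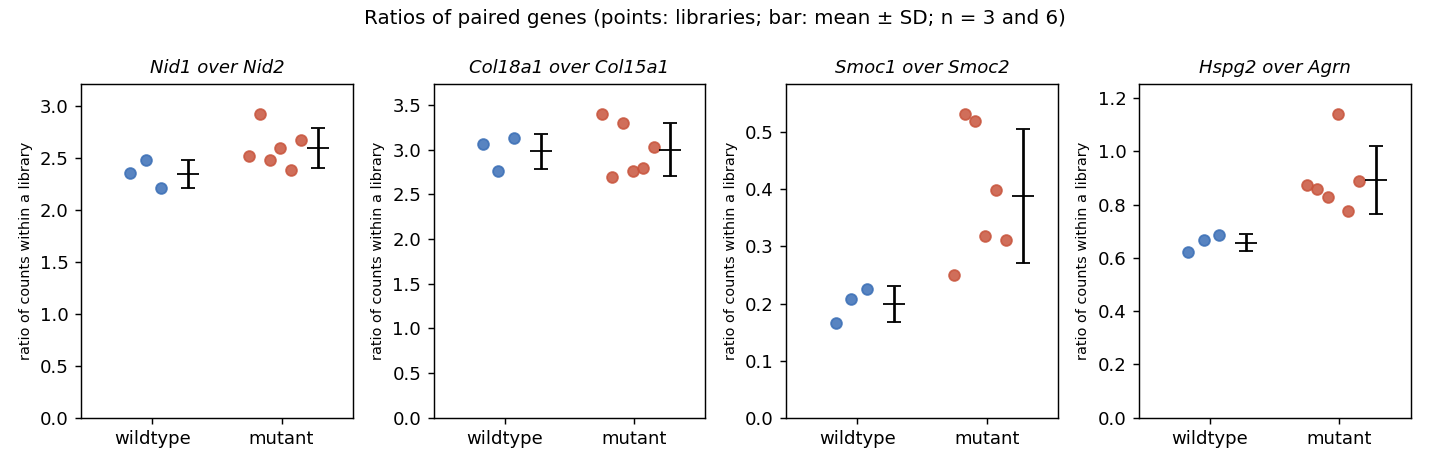
Ratio of counts of 2 paired genes within each library (points, linear axis from 0; bar, mean and SD) for wildtype (n = 3) and mutant (n = 6). The groups are apart for Smoc1 over Smoc2 and for Hspg2 over Agrn, where mutant 4 lies highest at 1.14, and overlap for the other pairs.

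Gene length and the ribosomal RNA content of libraries moved with genotype or with single libraries, so the calls were set beside fits that take them into account. With a smooth trend of expression on exon length removed from each library, 7 of the 9 genes were still called higher and 1 lower, against 5.80% and 7.90% of all genes. The log2 fold change of Hspg2, at 14307 exon bases the longest of the 9, went from 1.0 to 0.74, that of Agrn from 0.55 to 0.38 and that of Nid1 from 0.64 to 0.52. Smoc1, at 3496 bases the shortest, went from 0.54 to 0.57 and Smoc2 from -0.38 to -0.50. With the split of libraries at 1% of counts on Gm42418 as a covariate, the counts were again 7 and 1, against 5.93% of all genes in each direction, and the values ran from 0.50 (Nid2) to 1.1 (Hspg2) among those called higher.

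Within the 6 libraries above that split, wildtype 1 against 5 mutants, the log2 fold changes were 1.29 for Hspg2, 0.75 for Nid1, 0.64 for Nid2, 0.74 for Agrn, 0.70 for Col15a1, 0.68 for Col18a1, 0.66 for Smoc1, -0.24 for Sparc and -0.42 for Smoc2. Within the 3 below it, wildtypes 2 and 3 against mutant 2, they were 0.87, 0.64, 0.32, 0.52, 0.46, 0.34, 0.75, -0.01 and -0.55 in the same order. Each side has a genotype with a lone library, whose spread was taken to be that of the others, so the values are descriptions, and Sparc below the split (SE 0.13) showed no direction. All 7 genes that rose had their lowest wildtype value in wildtype 1. Without it 5 of them were called higher and 0 of the 9 lower by edgeR, where 1.88% and 1.45% of all genes were called. Smoc2, at a log2 of -0.34, was then the 1 gene lower at an unadjusted p under 0.05. Without wildtype 3 the counts were 7 higher and 1 lower, against 5.25% and 5.07% of all genes.

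**Figure D4:**
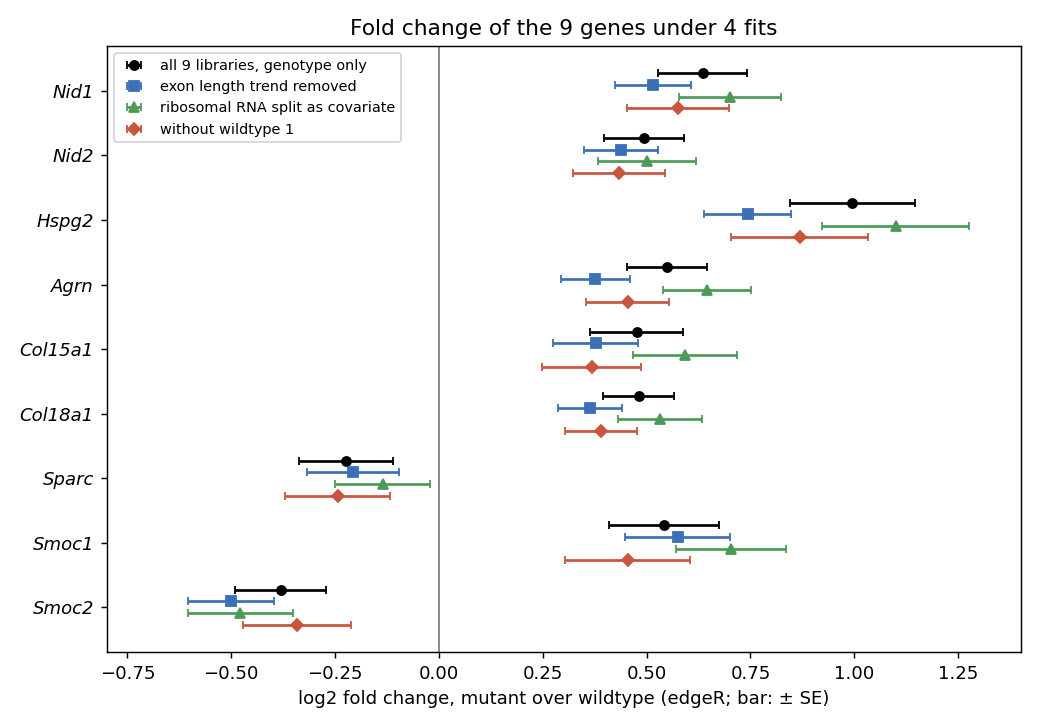
Log2 fold change of mutant over wildtype for each gene (points; bar, SE from edgeR) with all 9 libraries, with the exon length trend removed, with the ribosomal RNA split as covariate and without wildtype 1. Nid1, Nid2, Hspg2, Agrn, Col15a1, Col18a1 and Smoc1 lie above 0 and Sparc and Smoc2 below 0 in all 4 fits, and Hspg2 shifts most when length is removed.

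Deviations of log2 CPM from the mean of the own genotype, over 9 libraries, correlated with r between 0.72 and 0.94 for the 6 pairs among Nid1, Nid2, Hspg2 and Agrn, highest for Nid1 with Hspg2. Mutant 4 stood 0.50 above the mutant mean for Hspg2 and 0.30 for both nidogens, but 0.00 for Col18a1 and -0.13 for Sparc. Agrn was not set apart from the rest: it correlated with Col18a1 at 0.73 and with Col15a1 and Smoc1 at 0.65. Among the 9 genes, Nid1, Nid2 and Hspg2 correlated with those outside the 4 at no more than 0.58, the value of Nid1 with Col15a1. Genes outside the 9 reached more than the 4 did among themselves. The highest of 9704 searched were Sorcs2 for Nid1 (0.987), St3gal1 for Nid2 (0.979) and Arhgap21 for Hspg2 (0.992). Col15a1 and Col18a1 correlated at 0.72, and Smoc1 and Smoc2 ran against each other at -0.66, with Smoc1 high and Smoc2 low in mutants 2 and 3 and the reverse in mutant 1. Sparc lay between -0.42 and 0.43 with each of the others. The same deviations correlated with the length slope of a library at 0.86 for Nid1 and Hspg2, 0.84 for Nid2 and 0.58 for Agrn. For Smoc2 the value was 0.52, for Col15a1 0.43, for Col18a1 0.31, for Smoc1 0.06 and for Sparc -0.15. These are descriptions over libraries that share depth and composition, and the part of the length slope in them was not tested beyond the fits above.

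**Figure D5:**
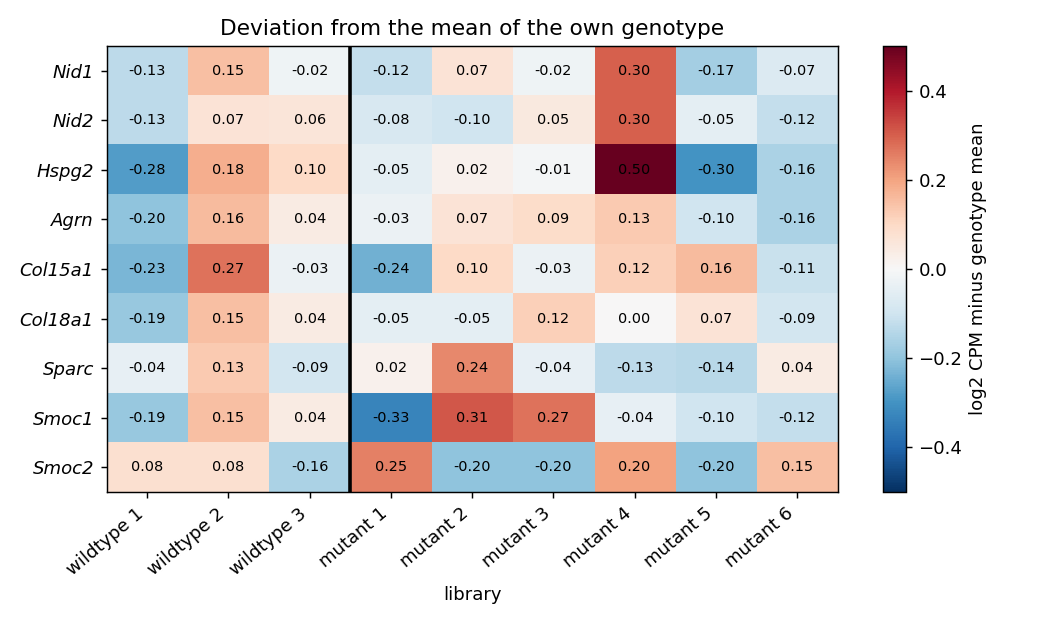
Deviation of each gene in each library from the mean of its own genotype (log2 CPM; red above, blue below; wildtype left of the line). Mutant 4 is highest for Nid1, Nid2 and Hspg2, and Smoc1 and Smoc2 show opposite signs in mutants 1 to 4 and 6, with -0.04 for Smoc1 in mutant 4.

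Most chain genes of the networks that these linkers join rose as well. Of 17 laminin and type IV collagen chain genes, 13 rose and 0 fell (edgeR), with a median log2 fold change of 0.59. That is 76.5% of those tested, beside 9.70% of all genes called higher. With the exon length trend removed, 11 were called higher, with a median of 0.43, beside 5.80% of all genes. Without wildtype 1, 7 were called higher, beside 1.88% of all genes. Col4a1, the mutated gene, rose 1.65-fold from 625 ± 92.7 to 1030 ± 82.7 CPM (edgeR adjusted p = 0.000876) and Col4a2 1.6-fold. Lama4, a laminin alpha chain of vessels, rose 1.72-fold from 55.5 ± 7.96 to 95.7 ± 17.1 CPM (edgeR adjusted p = 0.00203). Lamc1, the gamma chain that nidogens bind, was called higher as well, 1.54-fold, a gene picked out here with its value known.

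Of 19 genes for receptors and partners that bind these proteins, 12 rose and 0 fell, with a median log2 of 0.34. That is 63.2%, beside 9.70% of all genes called higher. Stab1, a scavenger receptor known to take up SPARC, rose 1.95-fold from 29.3 ± 3.57 to 57.1 ± 7.97 CPM (edgeR adjusted p = 0.000368). Ecm1, a perlecan-binding glycoprotein, rose 1.67-fold (adjusted p = 0.00154) and the integrin chain Itgav 1.42-fold (adjusted p = 0.00428). The agrin receptor genes Dag1, Lrp4 and Musk, picked out here with their values known, were among the 12. They rose 1.24-fold, 1.41-fold and 1.46-fold (edgeR adjusted p = 0.0174, 0.00931 and 0.0428), with Musk at 6.79 CPM in wildtype. Dok7, of the same list, was under 1 CPM and not called (log2 -0.41, adjusted p = 0.628). With the exon length trend removed 8 of the list were called higher, and with the ribosomal RNA split as covariate also 8. These compare with 5.80% and 5.93% of all genes. Without wildtype 1, 3 of the list were called higher, and without wildtype 3, 7, beside 1.88% and 5.25% of all genes. The 3 were Stab1, Ecm1 and Itgav, so Dag1, Lrp4 and Musk lost their calls without wildtype 1.

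Of 27 genes tested for heparan sulfate chain synthesis and editing 5 rose and 2 fell, 18.5% and 7.41%, beside 9.70% and 9.47% of all genes tested, with a median log2 of 0.12. The share that fell was thus no higher than that of all genes. Sulf1, which removes sulfate from finished chains, rose 1.42-fold from 119 ± 14.4 to 169 ± 8.88 CPM (edgeR adjusted p = 0.00197), and the sulfotransferase gene Hs3st3b1 1.35-fold (adjusted p = 0.00315). B3gat3 and B3galt6, which build the linker between core protein and chain, fell 1.42-fold (adjusted p = 0.00491) and 1.37-fold (adjusted p = 0.0228). Without wildtype 1, 3 were called higher and 1 lower, beside 1.88% and 1.45% of all genes, and B3galt6 lost its call (edgeR adjusted p = 0.177). Without wildtype 3, 3 were called higher, beside 5.25% of all genes. Of 11 cell surface heparan sulfate proteoglycan genes, 6 rose and 0 fell, with a median log2 of 0.33, among them the glypicans Gpc4, 1.39-fold, and Gpc6, 1.52-fold, and the co-receptor Tgfbr3, 1.53-fold. The 6 were 54.5% of this list, beside 9.70% of all genes. Without wildtype 1, 3 of the 11 were called higher, beside 1.88% of all genes. With the length trend removed 5 were, beside 5.80%.

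Of 5 other SPARC-related genes 2 rose and 0 fell: Sparcl1, the closest relative of Sparc, 1.34-fold from 123 ± 13.4 to 165 ± 5.87 CPM (edgeR adjusted p = 0.00315), and Spock2 1.26-fold (adjusted p = 0.0115). Spock3 stood at 22.0 ± 2.29 and 18.7 ± 2.61 CPM (adjusted p = 0.228). Spock2 lost its call without wildtype 1 or wildtype 3. Of 12 tested protease genes that cut matrix proteins of this kind, 4 rose and 0 fell: Adamts1 1.49-fold (adjusted p = 0.00113), Adamts4 1.62-fold (adjusted p = 0.00836), Adamts5 1.26-fold (adjusted p = 0.0390) and Mmp9, named only to complete the count. These 4 were 33.3% of the protease genes tested, beside 9.70% of all genes called higher. Only 2 proteases were called higher without wildtype 1 or 3 or mutant 1 or 6. For the 2 wildtypes this compares with 1.88% and 5.25% of all genes. Adamts5 was not called without wildtype 1 or 3, mutant 1, 3 or 6, or with the length trend removed. Across the lists with 0 genes called lower by edgeR, DESeq2 called 0 lower and limma-voom 1, a protease. With the exon length trend removed, edgeR also called 1 protease lower. In the main edgeR fit the 1 gene lower at an unadjusted p under 0.05 was the cathepsin gene Ctsl.

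Markers of vessels and stroma differed between the groups beside these genes. For scale, 9.70% of all genes tested were called higher and 9.47% lower. Of 10 vascular endothelial markers 7 rose and 0 fell, and their summed level was 517 to 592 CPM in wildtype and 701 to 814 in mutant libraries, highest in mutant 4. Without wildtype 1, 1 of them was called higher, in a fit that called 1.88% of all genes higher and 1.45% lower. Within the 3 libraries low in ribosomal RNA their median log2 was 0.27, beside 0.42 with all libraries. Kdr is in this list and among the receptors above. Of 7 pericyte markers 4 rose, with sums of 369 to 423 and 468 to 588 CPM, also highest in mutant 4. Of 8 keratocyte markers 5 fell, with sums of 10137 to 13011 and 7490 to 9969 CPM, and without wildtype 1 or wildtype 2 the count was 1 and 3, and 3 with the length trend removed. Of 6 smooth muscle markers 5 fell, with sums of 1400 to 1467 and 933 to 1201 CPM, and 2 did so without wildtype 2 or 3 and 3 without wildtype 1 or mutant 3. All markers of these 4 lists were detected. Of 5 corneal endothelial markers 3 rose (2189 to 2368 and 2282 to 2842 CPM). Of 8 corneal epithelial markers 1 rose (7840 to 8802 and 7494 to 8747 CPM), a share near that of all genes. Without wildtype 1 these counts were 1 and 0 (edgeR). Of 8 macrophage markers 3 rose, from 221 to 235 CPM summed in wildtype to 332 to 469 in mutant libraries. Of 6 red cell markers 4 rose, from 533 to 939 CPM to 1796 to 8785, highest in mutant 1, and 1 was called without wildtype 1 and 2 without wildtype 2 or 3. Of 5 Schwann cell markers 1 rose (108 to 127 and 116 to 145 CPM), too few to set apart from the share of all genes. Without wildtype 1, 0 of these were called. Pigment cell (15329 to 16004 and 13571 to 15257 CPM), neural retina (93.2 to 112 and 86.5 to 98.2 CPM), lens and skeletal muscle markers had 0 calls, and Rpe65, Rcvrn and Lim2 were at 0 counts in every library. In bulk tissue more cells of a type and more RNA per cell cannot be told apart, and the part of these markers in the values of the 9 genes was not tested.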

How the data were processed

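RNA of 9 anterior segment libraries was compared between 3 wildtype and 6 Col4a1+/G1344D samples, grouped by the genotype in their labels. The authors deposited whole-number read counts by Ensembl identifier. The submitters' processing notes list GRCm38 and the tools HTSeq 0.6.1, STAR 2.6.1 and DESeq2 1.6.3, without their roles. They give neither annotation release nor strand setting. Symbols, spans and exon lengths came from GENCODE M21 (GRCm38), which held 34490 of 35275 identifiers, and promoter windows from RefSeq.

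The test was edgeR 4.0.16 in R 4.3.3 (TMM, default filter by group, robust quasi-likelihood fit, genotype alone), adjusted over 15825 genes. SE was derived from the F statistic. CPM used TMM sizes, and log2 CPM for deviations a prior count of 2. Tests were checked on simulated counts. Alternatives used limma 3.58.1, DESeq2 1.42.0 and mgcv 1.9.3 (length trend). For each gene list the rule named up to 3 tested genes with the lowest p and any that moved against the others; for each called gene of the 9, it named the 2 protein-coding genes of at least 10 CPM with the most similar deviations. The 9 genes and all lists were chosen with earlier results of these data known. Pools of 1 genotype differed beyond sampling noise, so each counts as 1 replicate. Same-numbered libraries did not deviate together.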

Additional observations from a re-analysis of the deposited data

Results flagged for a closer look

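Of 13 measures examined, the 9 genes and 4 ratios, there were 3 in which the highest of the 6 mutant libraries, mutant 4 each time, stood apart from the others by the gap to its nearest neighbour divided by the range of the group; each value lies above the 95% limit for 6 samples (Dixon). The quotient was 0.638 for Nid2, with mutant 4 at 373 CPM, 0.668 for Hspg2, at 676 CPM, and 0.693 for the ratio of Hspg2 over Agrn, at 1.14. All 3 rest on this library, and 2 of them on Hspg2, so they are not independent, and chance alone flags about 1 group in 20. Mutant 4 also had the steepest length slope of the 9 libraries, 0.152. Without it, Hspg2 and Nid2 were still called higher (log2 0.88 and 0.43, edgeR adjusted p = 0.000106 and 0.00118), and Hspg2 over Agrn differed by a log2 of 0.36 (exact permutation p = 0.0179, adjusted p = 0.0714).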

How the results depend on the processing

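In 9 other fits that keep all libraries (other scaling factors, DESeq2, limma-voom, filters, the replicate block, exon length, ribosomal RNA), all 81 member values kept their direction and side of the threshold. At an adjusted p under 0.01, 6 members were called higher and 0 lower, Smoc1 and Smoc2 losing their calls. The count over all genes moved more, from 3034 to 4687 with limma-voom, 1485 with the replicate block, 1877 with the ribosomal RNA split, 1032 at the stricter threshold, and 538 to 3265 over libraries left out (538 without wildtype 1, 1669 without wildtype 3). With upper-quartile factors 1326 genes were called higher and 1707 lower, against 1535 and 1499. Replicate numbers are only names here: same-numbered libraries correlated at 0.095, 0.026 and -0.104, and under the replicate block 7 members were higher and 1 lower.

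Leaving out libraries gave 5 to 7 members higher and 0 to 1 lower, with log2 fold changes of 0.37 to 0.62 for Col15a1, 0.45 to 0.62 for Smoc1 and -0.45 to -0.34 for Smoc2. The log2 ratio difference ran from 0.79 to 1.04 for Smoc1 over Smoc2, 0.36 to 0.47 for Hspg2 over Agrn and -0.05 to 0.04 for Col18a1 over Col15a1; without the log, Smoc1 over Smoc2 differed by 0.189 (adjusted p = 0.0952). The cause was not tested, beyond the fewer splits that fewer libraries allow.

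Alternatives chosen after seeing the data were the libraries under and over the ribosomal RNA split alone, and the length and ribosomal RNA terms together. Under the split 400 genes were called and 4 members higher, with Nid2 (0.32), Col15a1 (0.46) and Col18a1 (0.34) not called. Over it 1150 genes were called and 0 members lower (edgeR; Smoc2 at an unadjusted p of 0.0299), with Smoc1 (0.66) and Smoc2 (-0.42) not called. Both terms together gave 1509 genes, with 7 members higher and 1 lower.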

Other observations

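The genes whose deviations within genotype were most like those of each called member, among 9704 protein-coding genes of at least 10 CPM and over 9 libraries, correlated with it at r from 0.945 to 0.992. They were Arhgap21 and Ncam1 for Hspg2, Sorcs2 and Stk24 for Nid1, St3gal1 and Cpd for Nid2, Sema4b and Paxip1 for Agrn, Recql5 and Cep89 for Col15a1, Gphn and Nsf for Col18a1, Dtx2 and Col4a5 for Smoc1, and Sp3 and Cybrd1 for Smoc2. Of these 16 genes 4 were called between the genotypes, against 19.2% of all genes tested, a share too close to set them apart: Cpd (log2 0.67, edgeR adjusted p = 0.00280), Col4a5 (0.47, adjusted p = 0.00246), Ncam1 (0.39, adjusted p = 0.0271) and Sema4b (0.45, adjusted p = 0.0307). Arhgap21, the gene most like Hspg2, stood at 30.0 CPM in wildtype and 37.2 CPM in mutant libraries (log2 0.31, adjusted p = 0.0639). The top of such a ranking over 9 libraries is high by selection, and the genes were ranked with no test.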
